A study of Mus musculus with 4 samples.

Results

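The miR-200 microRNAs, the Zeb repressors they target and the epithelial and mesenchymal genes on either side of the epithelial-mesenchymal switch were followed at the level of DNA methylation in lung tumors that were sensitive or resistant to anti-PD1. The 10 genes were listed by name, and the methylation of each was read from CpG sites between 1000 bp before and 500 bp after every annotated transcription start site (TSS). For the hairpins Mir200b and Mir200c the window ran from 5 kb upstream to 1 kb downstream. A site counted where at least 20 reads covered it in all 4 tumors. On this rule 9 of the 10 genes were measured, among 20135 genes with at least 1 such site; Mir200b had none.

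Tumors were grown under the skin of the leg in female 129Sv/Ev mice aged 12 to 16 weeks from the mouse lung adenocarcinoma line 344SQ, which carries mutant p53. The 2 groups were the parental line (344SQP, 2 tumors) and a derived line with acquired resistance to anti-PD1 (344SQR, 2 tumors), and all 4 mice received anti-PD1 at 10 mg/kg, 4 doses starting on day 4, with tumors taken 24 h after the last dose. DNA came from whole tumors, so each value pools the injected cells with host stroma and blood cells. Reduced representation bisulfite sequencing (RRBS) gave 116794455 and 138331886 CpG calls in 344SQP tumors 1 and 2 and 160548303 and 174689402 in 344SQR tumors 1 and 2. Median coverage of the sites used was 98, 112, 130 and 133 reads in the same order.

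In epithelial cells the miR-200 family holds down Zeb1 and Zeb2, and these zinc-finger factors in turn repress both miR-200 clusters and epithelial genes such as Cdh1, so that each side keeps the other off. In mouse lung adenocarcinoma lines this loop is known to control the shift between epithelial and mesenchymal states and the capacity to spread. Methylation of the clusters and of epithelial promoters is one of the ways in which such states are known to be kept.

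The clusters encode 5 hairpins, which fall into 2 groups by the seed of their 3p strand. The mature sequences are shown because the seed decides which targets each microRNA reads; capitals mark the seed (bases 2 to 8), and the sequences are those of RefSeq on GRCm38.p6, all on the minus strand.
mmu-miR-200b-3p (chr4:156055685-156055706): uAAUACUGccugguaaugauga
mmu-miR-200c-3p (chr6:124718324-124718346): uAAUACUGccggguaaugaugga
mmu-miR-429-3p (chr4:156053916-156053937): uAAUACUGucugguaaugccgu
mmu-miR-200a-3p (chr4:156054911-156054932): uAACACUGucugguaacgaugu
mmu-miR-141-3p (chr6:124717917-124717938): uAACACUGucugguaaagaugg

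Across the 9 measured genes, methylation was high over the hairpin window of Mir200c, low at the promoters of all others, and moved little between the lines. Zeb2 and Vim were called lower in 344SQR tumors and Grhl2 and Cdh2 higher, while Mir200c, Zeb1, Cdh1, Epcam and Esrp1 were not called. The test compared the reads of both lines at each site by a likelihood ratio, combined the sites of a promoter by Stouffer's signed z and took a false discovery rate (FDR) under 0.05 over all promoters. The 4 calls among 9 stand beside 38.5% of all promoters called, 29.7% lower and 8.79% higher, so the share is near the background. The median difference of the members (344SQR minus 344SQP) was 0.178 percentage points and that of all promoters was -0.234. This test treats reads as independent and does not see the spread between tumors. With edgeR's quasi-likelihood test, which does, 0 of the 9 were called, where 15 of 20124 promoters were (0.0745%); at an unadjusted p under 0.05 it took 1 member and 1769 promoters. With limma 0 of 20135 promoters were called, and 2062 had an unadjusted p under 0.05. An exact permutation test of 2 tumors against 2 cannot give a p below 0.333.

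**Figure D1:**
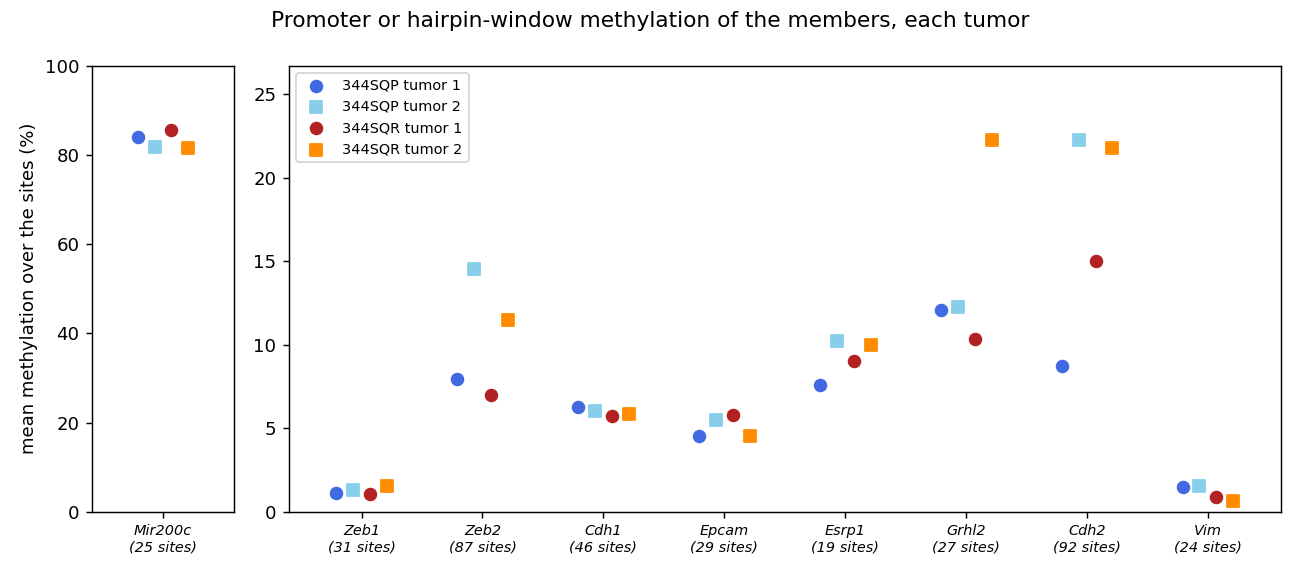
Mean methylation in percent over the qualified sites of each member in each of the 4 tumors, Mir200c on its own axis; blue points are 344SQP, red and orange points 344SQR, circles tumor 1 and squares tumor 2. Mir200c lay between 81.7% and 85.5%, and the lines did not overlap at Cdh1 and Vim.

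At Mir200c, on the minus strand of chromosome 6 at 124718322 to 124718390, the 25 sites of the window averaged 84.1% and 81.7% in the 344SQP tumors and 85.5% and 81.7% in the 344SQR tumors. Of these, the 6 sites farthest upstream, 124721754 to 124721856, lay in an intron and coding sequence of another gene, Ptpn6. They averaged 90.2% and 89.1% in 344SQP and 87.0% and 86.2% in 344SQR. Over the whole window the lines overlapped, and the difference of 0.704 points (SD 1.68 within 344SQP and 2.75 within 344SQR) was not called (FDR 0.959). It ranged from -1.24 without 344SQR tumor 1 to 2.65 without 344SQR tumor 2, and in the last case was called higher. This mean hid site changes in both directions, since 5 sites were lower and 6 higher in 344SQR. Over all members 66 of 380 sites were called, 17.4%, against 24.4% of the 1081201 sites tested. Of the 66, 30 were lower (7.89% of the members' sites against 18.4% of all sites) and 36 higher.

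The most marked pair of Mir200c sites lay 61 bp apart downstream of the hairpin, in an intron of the antisense-annotated transcript Gm15884, which runs through both hairpins. At 124717396 on the minus strand, methylation was 59.7% and 65.2% in 344SQP and 90.4% and 97.0% in 344SQR (144, 233, 157 and 168 reads). At 124717335 on the plus strand it went the other way, with 53.4% and 45.3% in 344SQP and 35.7% and 13.3% in 344SQR (148, 128, 126 and 158 reads). Both differences passed the site test (FDR 1.35e-14 and 1.53e-09), and at neither site did the lines overlap. The same opposition appeared just outside the window, where 124717307 was at 71.4%, 57.1%, 46.0% and 25.0% and 124717262 at 71.2%, 70.1%, 79.2% and 92.0% in 344SQP tumors 1 and 2 and 344SQR tumors 1 and 2. The plus-strand sites at 124717335 and 124717307 share reads, since reads were 50 bases long.

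Upstream of the hairpin 3 minus-strand sites at 124718486 to 124718506 averaged 82.7% and 70.6% in 344SQP and 88.2% and 87.5% in 344SQR, with all 3 higher. Around the start of Gm15884 at 124718831, the minus-strand site 124718786 fell from 95.3% and 95.6% in 344SQP to 89.2% and 75.9% in 344SQR, with between 259 and 361 reads. Its neighbour 124718775 on the plus strand was at 79.8%, 80.1%, 72.9% and 50.4% in the same tumor order. Further out, 124719469 was at 65.8% and 65.4% in 344SQP and 81.1% and 88.7% in 344SQR. In each of these cases the lines did not overlap, and the 344SQR tumors lay farther apart than the 344SQP tumors at 124718786, 124718775 and 124719469. Inside the hairpin 2 CpG cytosines were read, too thinly to qualify. At 124718336 methylation was 66.7%, 90.0%, 68.4% and 53.8% over 21, 20, 19 and 13 reads, with 95% Wilson intervals from 29.1% to 76.8% in 344SQR tumor 2 and from 69.9% to 97.2% in 344SQP tumor 2. At 124718385 every read was methylated in all 4 tumors, over 20, 18, 16 and 11 reads. Such intervals cover counting error only.

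The stretches that hold these sites are shown from GRCm38.p6 on the minus strand, with the CpGs that passed the site test in capitals, so that the opposed pair and the sites at the start of Gm15884 can be seen in their sequence.
Mir200c downstream (chr6:124717325-124717406): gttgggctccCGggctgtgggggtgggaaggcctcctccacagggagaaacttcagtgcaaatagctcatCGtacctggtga
Mir200c upstream (chr6:124718755-124718834): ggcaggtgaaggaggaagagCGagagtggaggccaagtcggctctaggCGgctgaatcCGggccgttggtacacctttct

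**Figure D2:**
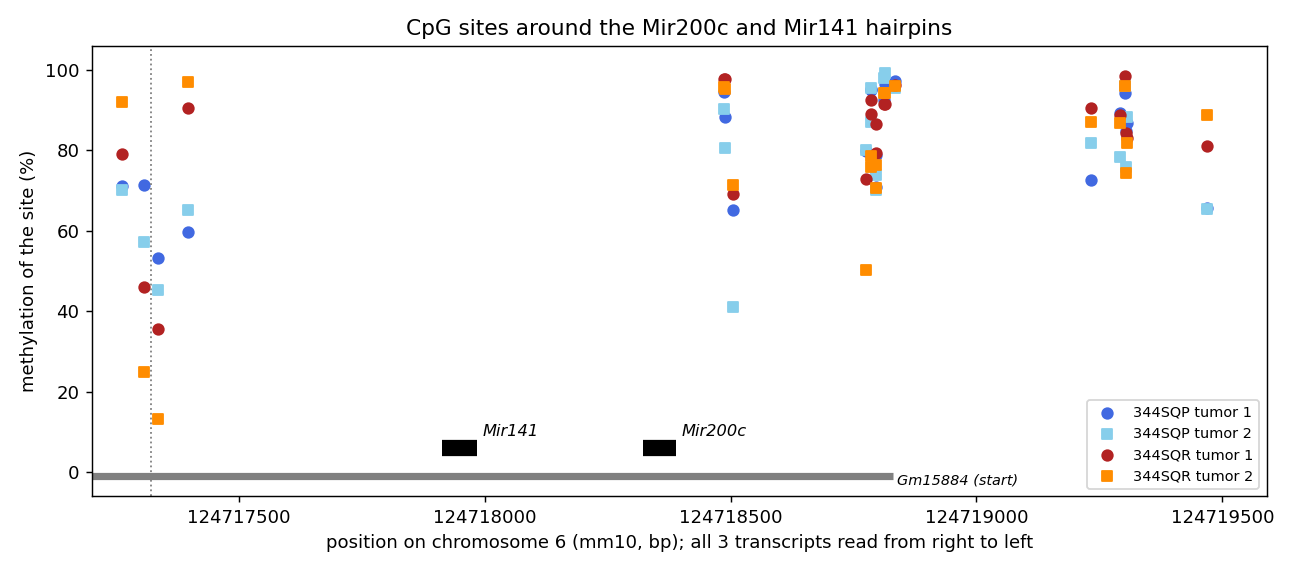
Methylation in percent of each qualified CpG site in each tumor around the Mir200c and Mir141 hairpins on chromosome 6, with the hairpins as black bars, Gm15884 as a grey bar and the downstream end of the Mir200c window as a dotted line. Near the left edge 124717396 was higher in both 344SQR tumors and 124717335 lower. The 6 sites of the window that lie in Ptpn6 are beyond the right edge.

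Mir141, which shares the cluster, was read over 11 sites at 86.8% and 82.9% in 344SQP and 87.7% and 81.7% in 344SQR, and was not called; these sites also lie in the window of Mir200c. The chromosome 4 cluster was almost unread. Its window for Mir200b, 156054681 to 156060750, holds 78 CpGs and 6 CCGG sites, the sequence at which RRBS usually cuts, against 130 and 18 in the window of Mir200c. Here 45 cytosines were listed in at least 1 tumor, none with more than 14 reads. Their pooled reads were methylated in 17 of 19 and 16 of 21 in the 344SQP tumors and in 31 of 38 and 53 of 86 in the 344SQR tumors. These shares, 89.5%, 76.2%, 81.6% and 61.6%, have Wilson intervals of 68.6% to 97.1%, 54.9% to 89.4%, 66.6% to 90.8% and 51.1% to 71.2%, and the tumors did not list the same cytosines, so no difference could be read at this depth. Mir200a and Mir429 had no qualified site. The nearest qualified sites lay downstream in Ttll10, where 11 sites averaged 68.8% and 64.8% in 344SQP and 64.1% and 57.2% in 344SQR.

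Zeb1, a repressor of Cdh1 and of both clusters, was almost unmethylated. Over 31 sites its promoter stood at 1.103% and 1.28% in 344SQP and 1.06% and 1.56% in 344SQR, and the lines overlapped. Of these sites 1 was called lower and 1 higher, neither above 5.5% in any tumor.

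Zeb2, its paralog, was measured at 87 sites on chromosome 2 and averaged 7.94% and 14.5% in 344SQP and 6.97% and 11.5% in 344SQR. The call was lower (FDR 6.81e-06, difference -2.01 points), but the tumors of the lines overlapped, tumor 2 being the higher of the pair in both. Without 344SQP tumor 2 the difference turned to 1.28, without 344SQR tumor 1 it was 0.240 and not called, and without 344SQP tumor 1 and 344SQR tumor 2 in turn it was -5.29 and -4.25. With the TSS at the 5′ end alone it was -5.49. Sites near the proximal start, 45110191 to 45110233, averaged between 0% and 1.01% in the 4 tumors. Downstream of this start 2 sites were called higher, 45110057 at 1.4% and 0% in 344SQP and 6.7% and 7.5% in 344SQR, and 45109932 at 4.1% and 3.1% against 3.6% and 13.2%. The larger differences lay at the distal start, 45117395. There, 5 minus-strand sites within 28 bases of an intron, 45117071 to 45117098, averaged 20.3% and 30.9% in 344SQP and 7.33% and 8.59% in 344SQR, all 5 lower. The largest step was at 45117092, with 30.1% and 48.7% in 344SQP and 5.4% and 10.0% in 344SQR over 143, 199, 221 and 210 reads (site FDR 1.35e-14). Its Wilson intervals were 23.2% to 38.0% and 41.9% to 55.6% in 344SQP against 3.13% to 9.25% and 6.63% to 14.8% in 344SQR. The 30 bases that hold this run are shown on the minus strand, with the CpGs called lower in capitals.
Zeb2 stretch (chr2:45117070-45117099): cCGggacCGacagagggagCGaagttCGCG

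Nearer to the same start, in the 5′ UTR, 9 plus-strand sites at 45117247 to 45117283 were at 18.5% and 47.8% in 344SQP and 19.8% and 35.7% in 344SQR, with 2 sites lower. On the minus strand, 45117254 to 45117288, the values were 22.2% and 44.9% against 15.8% and 33.9%, with 4 sites lower. In the averages of both stretches the gap between the tumors of a line exceeded the gap between the lines. Only at 45117254 (20.5% and 43.8% against 11.1% and 8.5%) did the lines not overlap. Between this stretch and the first, 8 minus-strand sites at 45117150 to 45117189 averaged 8.57% and 9.57% in 344SQP and 11.7% and 12.6% in 344SQR, but only 45117178 was called, at 7.9% and 5.3% against 15.2% and 22.7%. An intronic group downstream of the promoter windows moved with the first stretch, with 5 minus-strand sites at 45108808 to 45108833 at 11.8% and 17.9% in 344SQP and 2.15% and 3.39% in 344SQR, all called lower. Zeb2os, an antisense gene at the proximal start, averaged 1.09%, 1.06%, 1.37% and 1.59% over 56 sites and was called higher at these low levels. In its 62 gene-body sites Zeb2 averaged 26.3%, 26.1%, 25.6% and 24.7%.

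Cdh1 encodes E-cadherin, the adhesion protein of epithelial junctions and a direct target of Zeb repression. Its promoter on chromosome 8 averaged 6.25% and 6.04% in 344SQP and 5.76% and 5.83% in 344SQR over 46 sites. The lines did not overlap, yet the difference of -0.351 points was not called (FDR 0.253); without 344SQP tumor 2 it was called, at -0.457. Such a separation was seen at 2 of the 9 members and at 40.0% of all promoters. Of the 46 sites 4 were called lower and none higher. Around the start, the plus-strand stretches 106603317 to 106603360 and 106603438 to 106603478 averaged 2.45% or less in every tumor. On the minus strand, 106603449 to 106603486 averaged 3.08% and 4.16% in 344SQP and 2.24% and 1.38% in 344SQR, with 3 sites lower. The outermost upstream site, 106602563, was at 93.2%, 98.1%, 97.4% and 90.3%.

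Inside Cdh1 the differences between the lines were larger. The 34 intronic sites outside the promoter window averaged 39.3% and 32.6% in 344SQP and 30.4% and 25.9% in 344SQR, with 14 sites lower and none higher. At 106606904 methylation was 35.9% and 29.9% in 344SQP and 12.2% and 7.36% in 344SQR, over 170, 184, 263 and 258 reads. At 106635766 it was 65.9% and 58.6% against 34.5% and 32.4%. The 13 coding-exon sites averaged 89.6% and 88.8% in 344SQP and 90.9% and 89.6% in 344SQR, with 2 sites higher and none lower. Over its 47 gene-body sites the difference was -5.35 points, and it was -2.84 without 344SQP tumor 1 and -3.52 without 344SQR tumor 2. Loss in gene bodies was widespread, as the median over 13648 gene bodies with at least 5 sites was -2.74 points and 34.8% of them fell at least as far as Cdh1.

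Epcam encodes a surface adhesion molecule of epithelial and carcinoma cells. Its promoter averaged 4.51% and 5.47% in 344SQP and 5.77% and 4.56% in 344SQR over 29 sites, and the lines overlapped. The difference of 0.178 points was not called, but without 344SQR tumor 1 it was -0.424 and called lower. A change at 1 short stretch was averaged away. At 87636417 methylation was 7.6% and 3.0% in 344SQP and 25.8% and 22.7% in 344SQR (92, 100, 97 and 97 reads, site FDR 7.51e-07), and at 87636422, on the same reads, it was 4.3% and 6.0% against 16.5% and 25.8%. With the TSS at the 5′ end alone, 87635979, Epcam rested on the 3 sites from 87636417 to 87636451 and was called higher by 11.5 points. Both CpGs lie in an intron of the longer transcript, upstream of the start at 87636682, and are marked by capitals on the plus strand.
Epcam pair (chr17:87636405-87636434): taagctgccaggCGcagCGcaaagtcaagt

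At the other end of the Epcam window, 6 plus-strand sites from 87636941 to 87636989 were at 5.35% and 5.33% in 344SQP and 2.53% and 1.58% in 344SQR. In 7 minus-strand intronic sites, 87637246 to 87637283, 344SQP tumor 2 stood apart at 18.8%, with 7.55% in 344SQP tumor 1 and 9.31% and 4.25% in 344SQR.

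Esrp1 encodes a splicing factor that keeps epithelial isoforms in place. Its promoter averaged 7.57% and 10.2% in 344SQP and 9.01% and 9.96% in 344SQR over 19 sites, was not called and held 3 sites lower and 3 higher. The difference of 0.589 points became a call at a coverage minimum of 50 reads (3.66) and without 344SQP tumor 2 (1.92), and without 344SQP tumor 1 it was -0.737. The 2 plus-strand sites at 11386613 and 11386616 averaged 4.15% and 4.32% in 344SQP and 7.75% and 19.1% in 344SQR. The 4 plus-strand sites from 11386729 to 11386740 averaged 11.5% and 20.7% against 8.28% and 5.52%.

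The body of Esrp1 gave the largest difference in mean methylation of any member. Its 17 sites outside the promoter window averaged 74.0% and 70.9% in 344SQP and 59.9% and 44.0% in 344SQR, a difference of -20.5 points, with 12 sites lower and none higher. Only 2.37% of gene bodies fell as far. Without 344SQR tumor 2 the difference was -12.6 points, and that share was not worked out again. In an intron, 3 plus-strand sites at 11376154 to 11376186 averaged 81.8% and 84.1% in 344SQP and 56.3% and 38.8% in 344SQR. On the other strand of the same stretch, 11376169 to 11376211, the values were 84.7% and 81.6% against 65.4% and 30.9%. At 11376154 alone methylation was 71.4% and 70.3% in 344SQP and 42.7% and 21.1% in 344SQR over 112, 111, 178 and 147 reads, and no Wilson interval of a 344SQR tumor, 35.7% to 50.0% and 15.3% to 28.4%, reached those of 344SQP, 62.5% to 79.0% and 61.2% to 78.0%. In a coding exon, 11365155 was at 81.4% and 60.7% in 344SQP and 45.1% and 25.6% in 344SQR. The opposite strand of that CpG, 11365154, read 56.1% and 66.7% against 33.8% and 40.7%. Both strands of 2 separate stretches were thus lower, with 344SQR tumor 2 the lowest except at 11365154. Not all of the body moved, as 11365007 stayed at or above 93.3% and 11385927 at or below 4.44% in every tumor.

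**Figure D3:**
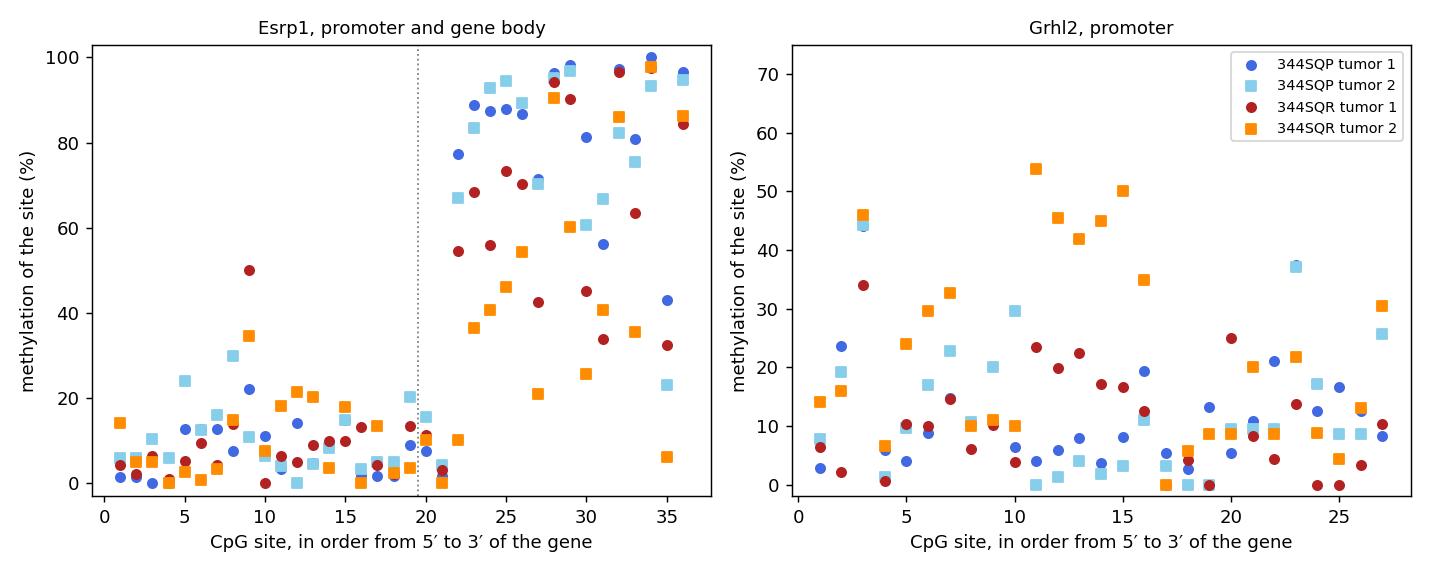
Methylation in percent of each qualified CpG site in each tumor, in order along the gene, for Esrp1 (19 promoter sites left of the dotted line and 17 gene-body sites right of it) and for the 27 promoter sites of Grhl2. Most Esrp1 promoter sites were low in all tumors and its body was lower in 344SQR; at Grhl2 a run of sites was raised in 344SQR, most in tumor 2.

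Grhl2, a transcription factor that maintains epithelial genes and opposes Zeb1, was called higher at its promoter on chromosome 15. The 27 sites averaged 12.1% and 12.3% in 344SQP and 10.4% and 22.2% in 344SQR (FDR 7.24e-09, difference 4.11 points). The mean rested on 344SQR tumor 2, and without it the difference turned to -1.83, while without 344SQR tumor 1 it was 10.05. The size also hung on the sites used, with 11.03 at a coverage minimum of 50 reads, 7.89 with reads pooled and 1.40 with strands merged. A stretch of the 5′ UTR gave a rise in both 344SQR tumors all the same. At 37233156 methylation was 4.0% and 0% in 344SQP and 23.5% and 53.8% in 344SQR over 75, 75, 98 and 91 reads, and the opposite strand of that CpG, 37233157, read 5.9% and 1.2% against 19.9% and 45.5% over 188, 165, 211 and 211 reads. The next CpG was at 8.0%, 4.0%, 22.4% and 41.8% on the plus strand and at 3.7%, 1.8%, 17.1% and 45.0% on the minus strand. A CpG 4 bases before them was called lower on the minus strand, with 37233153 at 6.4% and 29.5% in 344SQP and 3.8% and 10.0% in 344SQR. The lines overlapped there, 344SQP tumor 2 alone being high, and the plus strand, 37233152, was not called (10.7% and 20% against 10.2% and 11%). Gm16136, a gene read from the opposite strand over the same stretch, was called higher over 42 sites (13.9% and 15.2% against 11.1% and 20.5%), so the sites cannot be assigned to 1 of the 2 genes. Farther downstream in the Grhl2 window, 5 minus-strand sites at 37233401 to 37233427 went the other way. They averaged 17.5% and 19.4% in 344SQP and 5.52% and 15.7% in 344SQR, over 23 to 35 reads and with no site called.

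Beyond the promoter Grhl2 went the other way. Its 120 gene-body sites averaged 55.4% and 56.8% in 344SQP and 50.5% and 51.6% in 344SQR, with 40 sites lower and 10 higher, and 36.2% of gene bodies fell at least as far. The 26 coding-exon sites were at 96.4% and 95.3% against 93.2% and 87.9%, and 3 sites downstream of the gene, 37368839 to 37368884, at 98.9% and 95.8% against 86.2% and 71.7%. In an intron near the promoter, sites moved in opposite directions, 37234227 from 45.2% and 48.7% to 51.1% and 83.5%, and 37234411 from 51.7% and 73.8% to 28.6% and 42.3%.

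Cdh2 encodes N-cadherin, which replaces E-cadherin in mesenchymal cells. Its promoter on chromosome 18 averaged 8.74% and 22.3% in 344SQP and 15.0% and 21.8% in 344SQR over 92 sites and was called higher (FDR 6.09e-08, difference 2.89 points). The lines overlapped, and tumor 2 was the more methylated in both. Without 344SQP tumor 1 the difference turned to -3.86 and without 344SQR tumor 2 to -0.504. The gene body was higher too, at 40.6% and 61.4% in 344SQP and 46.3% and 76.7% in 344SQR over 83 sites, a difference of 10.4 points with 38 sites higher and 2 lower, and 99.3% of gene bodies had a difference as low or lower. The sign of this mean difference depended on which tumors were kept. It was 0.0352 without 344SQP tumor 1 and -4.75 without 344SQR tumor 2, and 20.8 and 25.6 without 344SQP tumor 2 and 344SQR tumor 1. In this mean the tumors of a line again lay farther apart than the lines. Some stretches did separate the lines, in both directions. The 2 plus-strand sites at 16807557 to 16807581 averaged 34.6% and 48.9% in 344SQP and 51.5% and 83.0% in 344SQR. Those at 16699898 to 16699921 averaged 86.7% and 83.9% against 68.9% and 71.6%. The steepest step was in 6 intronic sites at 16808175 to 16808213, at 33.0% and 27.3% in 344SQP and 44.7% and 87.2% in 344SQR, and the other strand, 16808206 to 16808246, read 35.1%, 44.7%, 35.5% and 94.5%, so only 344SQR tumor 2 stood apart on that strand.

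Vim encodes vimentin, the intermediate filament of mesenchymal cells. Its promoter was nearly free of methylation, at 1.51% and 1.57% in 344SQP and 0.867% and 0.671% in 344SQR over 24 sites. The lines did not overlap and the call was lower (FDR 0.0138, difference -0.769 points), but it was lost without 344SQP tumor 1 (-0.798) or tumor 2 (-0.740), at a coverage minimum of 10 reads (-0.542) and with the TSS at the 5′ end alone (-1.06), and the adjusted p of edgeR's quasi-likelihood test was 0.469. Only 1 site passed by itself, 13574208, at 9.4% and 6.3% in 344SQP and 1.4% and 3.4% in 344SQR. No qualified site lay in the rest of the gene.

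Gene bodies could be compared for 7 members. In 5 of them (Zeb1, Zeb2, Cdh1, Esrp1 and Grhl2) both 344SQR tumors were below both 344SQP tumors, which was the case for 51.5% of all gene bodies, so the direction is that of the genome. At Zeb1 the difference was only -0.278 points, and 0.0368 at a coverage minimum of 50 reads. Over the members' loci outside the promoter windows, 10 kb on either side included, 176 of 583 sites were called, and 104 when 344SQR tumor 2 was left out. Of all sites tested 24.4% were called, and of the 455030 sites in gene bodies 104059 were lower and 35822 higher. Of the members' 438 gene-body sites 91 were lower and 57 higher, and 38 of the 57 lay in Cdh2.

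As a sequence feature, the E-box hexamer read by Zeb and Snail factors, CACCTG or its reverse complement CAGGTG, was searched in the 250 bases before each RefSeq start on GRCm38.p6. Promoter sequences matched 3 of the 10 members. Epcam held 2 matches and the promoters of Zeb2 and Vim none, where 17.2% of 32851 promoters held at least 1. The promoter table held no entry for Mir200b, Mir200c, Zeb1, Cdh1, Esrp1, Grhl2 and Cdh2. In CpG density the members ranged from 12.9 per kb in the window of Mir200b and 21.4 in that of Mir200c to 83.9 at Zeb1, with a median of 40.6 over all promoters tested.

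Among other epithelial genes, 35 of 40 listed were measured, and 19 were lower, 4 higher and 12 not called, where 29.7% of all promoters were lower and 8.79% higher; their median difference was -1.15 points. None of these calls was made by edgeR or limma, which had 3 and 2 of the 35 genes at an unadjusted p under 0.05. Mal2, a protein of apical transport, was at 8.66% and 8.54% in 344SQP and 1.61% and 2.18% in 344SQR over 32 sites, with an edgeR adjusted p of 0.0997. Bspry fell from 13.9% and 28.8% to 11.4% and 9.56%. The tight junction gene Cldn3 moved the other way, from 10.6% and 21.4% to 24.5% and 35.8%. Lower promoters outnumbered higher ones in this list, as they did among all promoters, where the median difference was -0.234 points. Both 344SQR tumors lay below both 344SQP tumors at 11 of the 35 genes and at 6526 of all 20135 promoters.

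Of 14 transcription factors linked to the mesenchymal switch 11 were measured, with 2 lower, 4 higher and 5 not called (29.7% and 8.79% of all promoters were lower and higher); edgeR and limma called none, and each had 2 at an unadjusted p under 0.05. Gsc was lower at 25.2% and 35.9% in 344SQP and 16.5% and 21.5% in 344SQR, and Sox9 at 3.05% and 3.57% against 1.75% and 1.79%. Twist1 was called higher at 34.3% and 67.1% against 45.8% and 75.9%, as were Foxc2 (41.1% and 61.2% against 48.9% and 70.2%), Tcf4 (23.0% and 47.1% against 30.7% and 55.1%) and Twist2 (21.8% and 30.4% against 24.0% and 37.6%). In each of these 4 genes tumor 2 was the higher in both lines, and the lines overlapped, as at Cdh2. Snai1, Snai3, Id2 and Tcf3 stayed at or below 2.45% in all tumors. Of 30 mesenchymal genes 20 were measured, with 7 lower, 1 higher and 12 not called, shares near those of all promoters (29.7% and 8.79%), and a median difference of -1.01 points; edgeR and limma called none, and had none at an unadjusted p under 0.05.

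Chromosome Y reads and markers of other cell types also varied between the tumors. Calls on chromosome Y were 406 and 254 per 1000000 in 344SQP tumors 1 and 2 and 555 and 178 in 344SQR tumors 1 and 2, in hosts that were female, so the order of the tumors within a line was the reverse of that at Zeb2, Cdh2 and Twist1. Of 20 leukocyte markers 8 were measured, 6 were lower and none higher, and their mean was 40.9% and 48.9% in 344SQP and 34.8% and 34.8% in 344SQR. This mean weighs genes equally, and the median marker had 3 sites. Runx3 among them averaged 12.8% and 21.5% against 8.03% and 13.7%; Ptprc, Cd3d, Cd3g, Cd4 and Cd8a had no qualified site. Of 10 endothelial markers 7 were measured, 4 lower and 1 higher, with a mean of 42.3% and 55.0% in 344SQP and 33.0% and 44.3% in 344SQR. Egfl7, Robo4, Tie1 and Erg were the lower ones, and Kdr the higher (8.48% and 13.2% against 11.4% and 26.8%), mostly in 344SQR tumor 2. Of 10 fibroblast markers 7 were measured, 2 lower and 2 higher, and 5 of the 7 were also in the lists above, both higher ones (Twist2 and Pdgfra) included; Pdpn was at 25.8% and 37.9% against 16.8% and 18.6%. Of 10 lung epithelial markers 4 were measured, 2 lower and 2 higher, with Cldn18 at 91.0% and 92.0% against 96.2% and 96.5%. Among all promoters 29.7% were lower and 8.79% higher. In these 4 lists edgeR and limma called none; at an unadjusted p under 0.05 edgeR had 0, 1, 0 and 1 genes and limma 2, 1, 0 and 1, in the order given. In bulk DNA, a change in the share of a cell type and a change in methylation per cell cannot be told apart, and neither the source of the chromosome Y reads nor the part of the cell mixture in the members' values was tested.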

How the data were processed

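RRBS was run on 4 tumors, 2 per line. Per the submitters' processing notes, the authors trimmed reads with Trim Galore 0.4.1 and cutadapt 1.9.1 and aligned them with Bismark and Bowtie 1.1.2 to mm10. They deposited for each CpG cytosine a read count (coverage) and, as a percent of that count, the methylated and unmethylated shares (deposited percent values given to 1 decimal). From these, methylated reads were recovered by rounding. All 1081076 qualified sites on chromosomes 1 to 19 and X lay on a CpG of GRCm38.p6. TSS and exons came from GENCODE vM21. Sites were tested by a likelihood ratio test of the 2 lines (p kept at or above 2.2e-16), combined per promoter by Stouffer's signed z, two-sided, with Benjamini-Hochberg adjustment over all promoters; the direction of a call is that of z. Python 3.11.15, numpy 2.4.6, scipy 1.17.1, statsmodels 0.14.6, pysam 0.24.0 and matplotlib 3.10.9 were used, and edgeR 4.0.16 and limma 3.58.1 under R 4.3.3 as alternatives on reads summed per promoter. Sites on the same strand within 50 bp were treated as a stretch.

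Members and gene lists were chosen with earlier results of these data known. Genes named in the text were the members, the other hairpins, mesenchymal transcription factors from their list, those epithelial or mesenchymal genes that were called with at least 5 sites, did not overlap and were among the 5 largest differences of their list (no mesenchymal gene met this), and from each marker list the gene with the largest difference and at least 5 sites; other markers are named without values for their call or for having no site. Gm15884, Ptpn6, Zeb2os, Gm16136, Ttll10 and single sites were chosen after their values were seen. Alternatives covered coverage minima, strands, depth, windows, tests, a replicate block and each tumor left out.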

Additional observations from a re-analysis of the deposited data

How the results depend on the processing

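Of the 135 differences of members recomputed under alternatives, 109 kept their label (14 because the window setting changed none of the member's sites), 16 lost the call, 5 gained one and 5 reversed by the sign of the combined z. With 1 tumor left out, Zeb2 ranged from -5.29 (without 344SQP replicate 1) to 1.28 (without 344SQP replicate 2), Grhl2 from -1.83 (without 344SQR replicate 2) to 10.05 (without 344SQR replicate 1), and Cdh2 from -3.86 (without 344SQP replicate 1) to 9.65 (without 344SQP replicate 2), with -0.504 without 344SQR replicate 2. Of 42 gene-body differences 39 kept their sign; the others were Zeb1 at a coverage minimum of 50 reads (0.0368), Epcam without 344SQP replicate 2 (0.841) and Cdh2 without 344SQR replicate 2 (-4.75). At the Epcam promoter z turned but the difference did not, with the TSS at the 5′ end only (11.5). In each case the cause was not tested. Members called fell from 4 to 0 with edgeR and to 0 with limma, and promoters called from 7750 to 15 and to 0. The epithelial, mesenchymal and transcription factor lists had 23, 8 and 6 genes called, and 0 in each with edgeR and with limma; both tools estimate a spread between tumors, which the likelihood ratio test does not. The replicate numbers 1 and 2 occur in both lines, but nothing more links the tumors. Deviations of same-numbered tumors nevertheless correlated over all promoters (r = 0.663) and over the 16692 promoters with at least 5 sites (r = 0.811). With the replicate block in edgeR 2444 promoters, 1 member (Vim), 8 epithelial genes, 2 mesenchymal genes and 5 transcription factors were called. With the replicate block by Mantel-Haenszel the numbers were 7549, 4, 23, 9 and 6. Members without overlap numbered 2, but 1 with reads pooled per promoter and 5 to 7 with 1 tumor left out, where 1 tumor faces 2. Sites called beyond the promoters, 176, ranged from 104 to 206 with 1 tumor left out. Alternatives for loci beyond the promoters, lists, tumor values, gene bodies and, except for Fisher's exact test, single sites were chosen after seeing the data. With 2 tumors per line and at most 14 reads at any cytosine of the Mir200b window, small differences and that cluster could not be resolved.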
